A study of Mus musculus with 3 samples.

Results

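The TET2 library and the OGT library of a chromatin immunoprecipitation study in mouse embryonic stem (ES) cells were set against each other along chromosomes 1 to 19. They are 2 of the 3 libraries of the series, and each antibody had 1 library. The cells were C57BL/6 ES cells kept on gelatin without feeder cells, and the labels name no treatment or genotype. The TET2 antibody was made in-house and the OGT antibody came from Novus. The third library, raised with an antibody to histone H2B carrying GlcNAc on a serine (H2B S112GlcNAc), came from the same kind of cells and was used only to order or describe stretches of the genome. No input or IgG library was analysed here, and the cells' identity cannot be checked on markers, because immunoprecipitated DNA holds no transcript levels.

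TET2 is a dioxygenase that oxidises 5-methylcytosine in DNA, a step on the way to demethylation, and it is one of the TET enzymes present in ES cells. OGT is the single nuclear and cytoplasmic enzyme that attaches O-linked N-acetylglucosamine (O-GlcNAc) to serines and threonines of proteins. TET2 binds OGT directly and is known to bring it to chromatin, where histone H2B is among its substrates. The comparison asks where on the genome the reads of both libraries lie together and where they lie apart.

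The TET2 library held 3832237 aligned reads of 44 bp and the OGT library 2179445. On chromosomes 1 to 19, reads with the same 5′ end and strand were counted once, which left 3188332 TET2 and 1814416 OGT positions. Repeated reads made up 14.17% of TET2 and 14.04% of OGT reads there. No read name occurred in both files. A ratio below is the share of TET2 positions in a stretch over the share of OGT positions, so that 1 means equal density after scaling. With 1 library per antibody a ratio has no replicate check and no p-value. The 95% intervals are exact (Clopper-Pearson) and cover counting error only, because PCR copies are not independent molecules. All coordinates are mm9.

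A small set of bins was extremely full in both libraries and is named here because it touches several results. These 1095 extreme bins of 1 kb were in the top 0.1% of both libraries, with at least 17 TET2 and 8 OGT positions. They held 2.37% of TET2 and 2.87% of OGT positions, and 10.8% of the reads of each library. Their ratio was 0.828 (0.819 to 0.838) by positions. By positions it fell with H2B S112GlcNAc density, from 1.06 (1.03 to 1.09) in the 536 bins with up to 24 H2B S112GlcNAc positions to 0.755 (0.743 to 0.766) in the 57 bins with 300 or more. Counted by reads the order was the opposite, from 0.815 (0.795 to 0.835) in the 536 bins to 1.02 (1.01 to 1.02) in the 57. At chr2:98507001-98508000, the bin with the most reads, 90797 TET2 and 52089 OGT reads lay at 856 and 814 positions. The ratio there was 0.598 by positions and 0.990 by reads. A bin of 1 kb has 2000 possible positions over both strands. The direction of the ratio in extreme bins thus depended on whether positions or reads were counted.

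TET2 and OGT rose and fell together over broad stretches, and the likeness between them grew with bin size. In 1 kb bins, where the median was 1 position for each library, Pearson's r of the log2 counts was 0.20 and Spearman's rho 0.18 over 2127816 bins. In 10 kb bins the medians were 11 TET2 and 6 OGT positions, and r was 0.65 and rho 0.68 over 239518 bins. In 100 kb bins the medians were 109 and 64 positions, and both r and rho were 0.94 over 24017 bins. These values describe bins that share chromosomes, base composition and sequencing lane, and bins are not replicates. Chromosome 12 had the highest r at each bin size, with 0.297 at 1 kb, 0.741 at 10 kb and 0.965 at 100 kb. Chromosome 3 had the lowest at 1 kb and 10 kb, with 0.118 and 0.532, and chromosome 18 the lowest at 100 kb, with 0.896.

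Much of the gap between bin sizes lay in sparse counts. At 1 kb, 37.2% of bins held a position of both libraries, 32.8% of TET2 alone, 15.0% of OGT alone and 15.1% of neither. At 10 kb both were present in 98.7% of bins, and at 100 kb in every bin. With TET2 drawn at random down to the number of OGT positions, r was 0.180, 0.589 and 0.926 for the 3 bin sizes. A correlation with the counting variance removed was 0.962 at 1 kb, 0.986 at 10 kb and 0.988 at 100 kb. That value leaned on extreme bins, and without them it was 0.705, 0.849 and 0.957. Bins called different at 1 kb, described below, were few but weighed on it as well. With extreme and called bins both left out it was 0.931, 0.976 and 0.993, which follows in part from the choice, since called bins were picked for their difference.

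**Figure D1:**
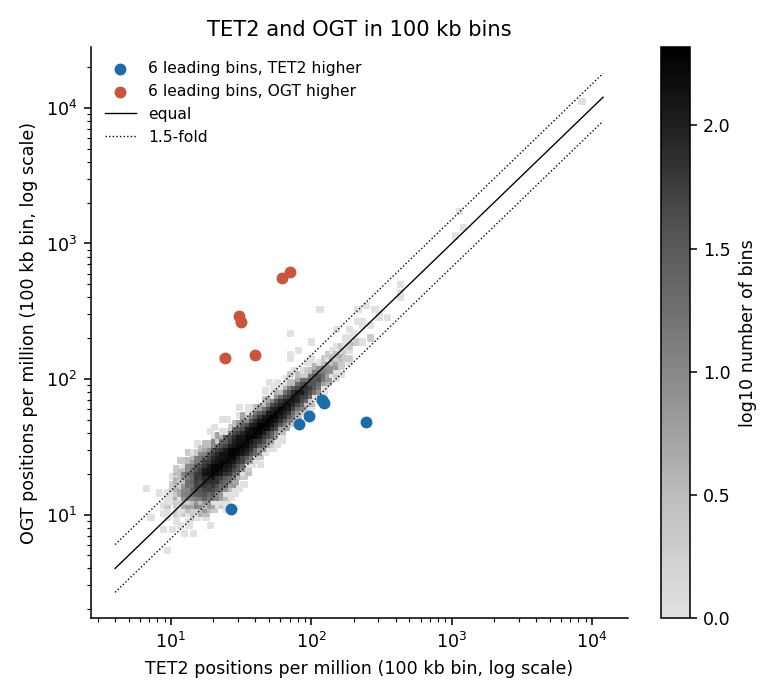
Each grey square is a class of 100 kb bins by TET2 (x) and OGT (y) positions, scaled to library totals, on log scales, darker with more bins, with lines for equal density and a 1.5-fold ratio. Of 24004 bins 97.3% lay within 1.5-fold, and the 6 leading bins each way, coloured, stood off the diagonal.

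The distance over which the profiles moved together gave the same picture. The covariance of TET2 and OGT counts in 1 kb bins a given distance apart was set over the geometric mean of each library's covariance with itself, outside extreme bins. The quotient was 0.705 at distance 0, 0.805 at 3 kb, 0.946 at 10 kb and 0.982 at 20 kb. At 50 kb it was 1.003 and at 100 kb 0.9996. Once called bins were left out too, the quotient was 0.931 at distance 0, 0.972 at 1 kb and between 0.983 and 1.001 from 2 kb to 100 kb. That rise follows in part from the choice, since called bins were picked for their difference. With called bins kept, the shared covariance fell short of the libraries' own mostly at distances below 20 kb. At 20 kb and more it nearly matched them. A broad density trend common to both libraries enters this quotient, and no input library was analysed to remove it.

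The sharpest departures were narrow TET2 sites and clustered OGT loci. A 1 kb bin was called different when 1 library held at least 20 positions, the ratio was at least 4 in either direction and its interval was clear of 2. TET2 was higher in 49 of the 1516 bins with enough positions in either library, which is 3.23%, and OGT was higher in 92, which is 6.07%. Only the 1412 bins with at least 20 TET2 positions could be called for TET2. For OGT only the 508 with at least 20 OGT positions could be, so both shares understate the rate among such bins, that of OGT by more. Bins within 10 kb of each other were joined, giving 48 loci higher in TET2 on 16 chromosomes and 41 loci higher in OGT on 17. Since OGT had fewer positions in all, 20 of them mark a denser bin than 20 TET2 positions do. With TET2 drawn down to OGT depth 26 bins were higher in TET2, and with every read counted 148 were higher in OGT. The loci were chosen by the ratio, so their ratios are a description, and H2B S112GlcNAc played no part in the choice.

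TET2 loci were single peaks. Of the 48 loci 47 were 1 bin long and the other spanned 2 kb. Together the 49 bins held 2941 TET2, 163 OGT and 472 H2B S112GlcNAc positions. That is 10.3 times as much TET2 as OGT (8.77 to 12.1) and 7.59 times as much TET2 as H2B S112GlcNAc (6.89 to 8.39) after scaling. OGT there was 0.740 times H2B S112GlcNAc (0.615 to 0.886), so the shortfall of OGT against that library was small beside the excess of TET2. OGT was at 0 in 5 of the 49 bins.

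OGT loci were broader and rose far above both other libraries. Of the 41 loci 16 had more than 1 called bin, the most being 11, and the longest spanned 23 kb. The 92 bins held 5447 OGT, 615 TET2 and 559 H2B S112GlcNAc positions. OGT was 15.6 times TET2 (14.3 to 16.9) and 20.9 times H2B S112GlcNAc (19.1 to 22.8). TET2 stood at 1.34 times H2B S112GlcNAc (1.19 to 1.51). In 12 of the 41 loci the OGT positions lay in more than 1 block. A block is a run of neighbouring stretches of 250 bp with at least 10 OGT positions each. By the same count of TET2 positions, 0 of the 48 TET2 loci had more than 1 block. Blocks were counted only within the called span, and all but 1 of the TET2 loci were 1 kb long, or 4 stretches. That leaves little room for more than 1 block, so this contrast follows largely from locus length. TET2 was at 0 in 10 of the 92 bins.

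The libraries also differed in repeats and strands at these loci. TET2 bins held 1.47 TET2 reads per position, and OGT bins 2.46 OGT reads per position. The distance from plus-strand to minus-strand 5′ ends, taken between medians where each strand had at least 15 positions, had a median of 105.5 bp over 29 TET2 loci, with a range of 45 to 140.5 bp. In 25 of these 29 it was at least 70 bp. In the 22 OGT loci measured the median was 42 bp, with a range of -51 to 73 bp. Of these loci 18 lay within 15 bp of 43 bp, the read length less 1. Only 1 of the 22 reached 70 bp. In a single peak, a distance near the read length means that reads of opposite strands largely covered the same bases. A longer one means that they flanked a common centre. Medians over a 1 kb bin do not pair reads, and the negative values show that this reading does not hold for every locus. What set these distances was not tested.

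The locus with the highest lower bound of the TET2 over OGT ratio was chr18:67451001-67452000. It held 137 TET2 positions against 1 OGT and 7 H2B S112GlcNAc positions, a ratio of 78.0 (13.8 to 3102). The next was chr18:7608001-7610000, whose leading bin from 7609001 held 556 TET2, 16 OGT and 29 H2B S112GlcNAc positions, a ratio of 19.8 (12.1 to 34.8). OGT and H2B S112GlcNAc stood together at this bin, at an OGT over H2B S112GlcNAc ratio of 1.18 (0.599 to 2.25). By positions it was the fullest of the TET2 loci named here, and its strand distance was 103 bp.

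The other leading TET2 loci held either no OGT position or a few. At chr5:65782001-65783000 there were 39 TET2, 0 OGT and 7 H2B S112GlcNAc positions, so TET2 was at least 7.40-fold higher against a floor of 3 OGT positions, and the lower end of the exact interval, which also covers error in the TET2 count, was 5.74. At chr8:117728001-117729000 there were 30 TET2, 0 OGT and 5 H2B S112GlcNAc positions, at least 5.69-fold by the same floor, with 4.35 at the lower end of the interval. Depth limits these bounds, because 0 OGT positions also allow a low OGT level. At chr17:24777001-24778000, 95 TET2, 4 OGT and 7 H2B S112GlcNAc positions gave a ratio of 13.5 (5.11 to 50.6). At chr5:66857001-66858000, 137 TET2, 8 OGT and 11 H2B S112GlcNAc positions gave 9.75 (4.81 to 23.0). OGT was close to H2B S112GlcNAc at both, at 1.22 and 1.56 times, with intervals that held 1. At chr2:173563001-173564000 the counts were 50 TET2, 1 OGT and 9 H2B S112GlcNAc (ratio 28.5, 4.88 to 1146), and at chr10:79167001-79168000 they were 63, 2 and 10 (ratio 17.9, 4.76 to 151). All 8 leading TET2 loci had more TET2 than H2B S112GlcNAc, with the lower bound of that ratio between 2.81 and 16.1.

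The leading OGT locus was chr11:87886001-87896000. Its 7 called bins and the bins between them held 1027 OGT positions against 22 TET2 and 30 H2B S112GlcNAc positions. The OGT positions lay in 5 blocks, and 22 of the 40 stretches of 250 bp had none. At its leading bin, from 87889001, there were 151 OGT, 1 TET2 and 1 H2B S112GlcNAc positions, an OGT over TET2 ratio of 265 (46.9 to 10549). The median 10 kb bin of the genome holds 11 TET2 and 14 H2B S112GlcNAc positions, so both other libraries were above their median in this locus of 10 kb, by far less than OGT, whose median is 6.

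The OGT locus with the most reads was chr7:134733001-134747000, with 5567 OGT, 45 TET2 and 54 H2B S112GlcNAc reads. Its OGT reads lay at 878 positions in 10 blocks over 14 kb, or 6.34 reads per position. TET2 had 41 and H2B S112GlcNAc 53 positions there. The leading bin, from 134740001, held 219 OGT, 5 TET2 and 6 H2B S112GlcNAc positions, and OGT was 77.0 times TET2 (32.5 to 239). TET2 and H2B S112GlcNAc did not differ beyond counting error in that bin, with a ratio of 1.02 (0.245 to 3.99).

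**Figure D2:**
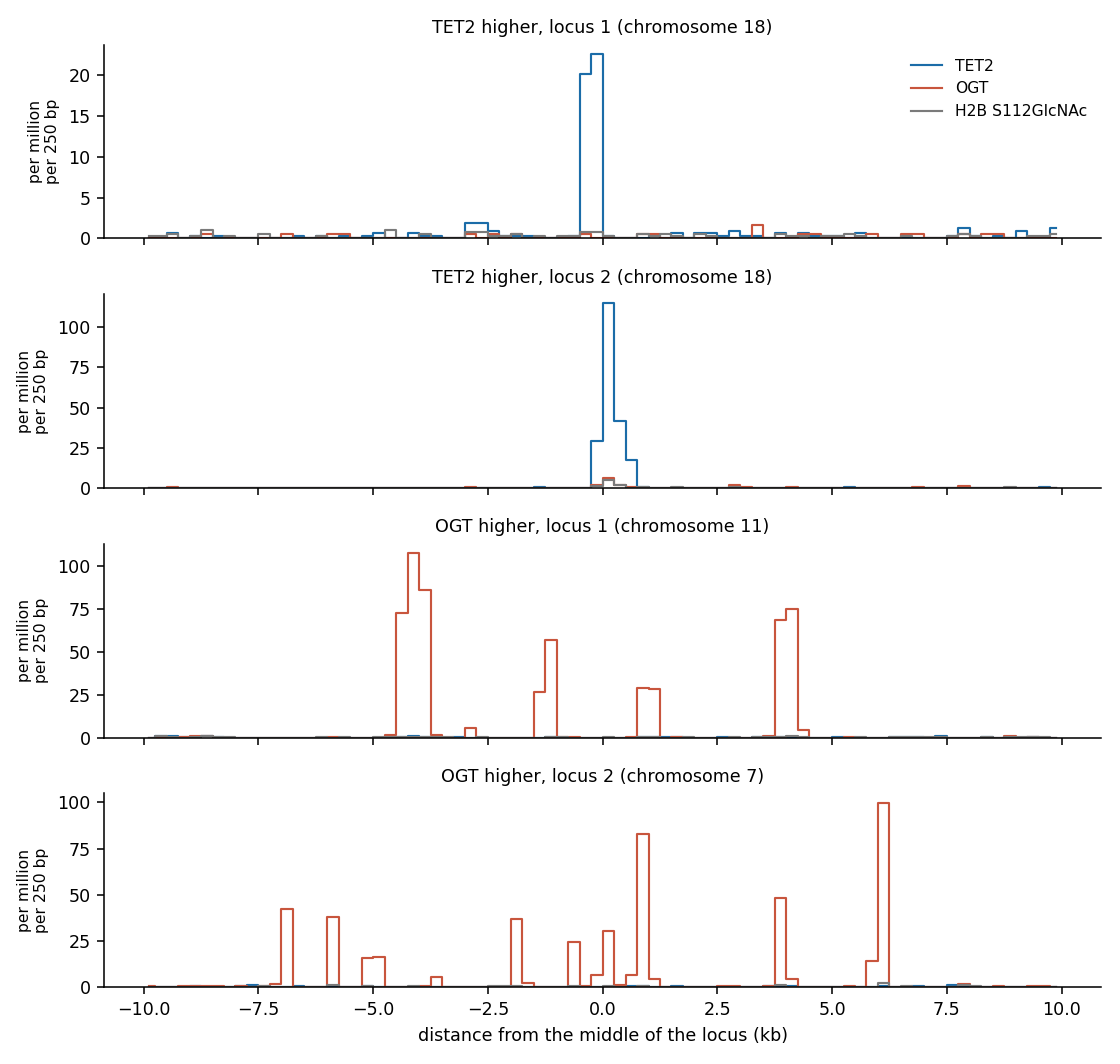
Positions, scaled to library totals, in steps of 250 bp within 10 kb of the middle of the 2 leading loci each way, for TET2 (blue), OGT (red) and H2B S112GlcNAc (grey), each panel with its own y axis from 0. The TET2 loci were 1 narrow peak each, and the OGT loci held 5 and 10 blocks with stretches between them that had no OGT position.

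Other leading OGT loci had the same broken form over longer spans. chr4:49646001-49669000 had 11 called bins and 13 OGT blocks in 23 kb, where OGT held 477, TET2 18 and H2B S112GlcNAc 28 positions. chr17:56444001-56462000 had 10 called bins and 10 blocks in 18 kb, with 461, 60 and 76 positions in the same order. chr14:63315001-63336000 had 4 called bins, 235 OGT against 16 TET2 and 23 H2B S112GlcNAc positions, and 8 blocks in 21 kb. These 3 loci had 1.41, 1.18 and 1.19 OGT reads per position, so blocks occurred without the heavy repeats of the chromosome 7 locus. chr3:133134001-133149000 had 4 called bins and 4 blocks with 181 OGT, 23 TET2 and 16 H2B S112GlcNAc positions.

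A pair of leading OGT loci had fewer blocks. chr18:7910001-7917000 held 169 OGT, 5 TET2 and 4 H2B S112GlcNAc positions in 2 called bins, and its leading bin had a strand distance of 73 bp, the only one measured at 70 bp or more among OGT loci. chr7:106396001-106398000 held 143, 2 and 3 positions in 2 neighbouring bins. At its leading bin, from 106396001, 53 OGT positions faced 0 TET2 positions, so OGT was at least 31.0-fold higher against a floor of 3 TET2 positions, and the lower end of the exact interval was 24.4. The same bound was at least 29.3-fold from 133139001 on chromosome 3, 26.9-fold from 63315001 on chromosome 14 and 26.4-fold from 49662001 on chromosome 4. The lower ends of their intervals were 22.95, 21.05 and 20.57.

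**Figure D3:**
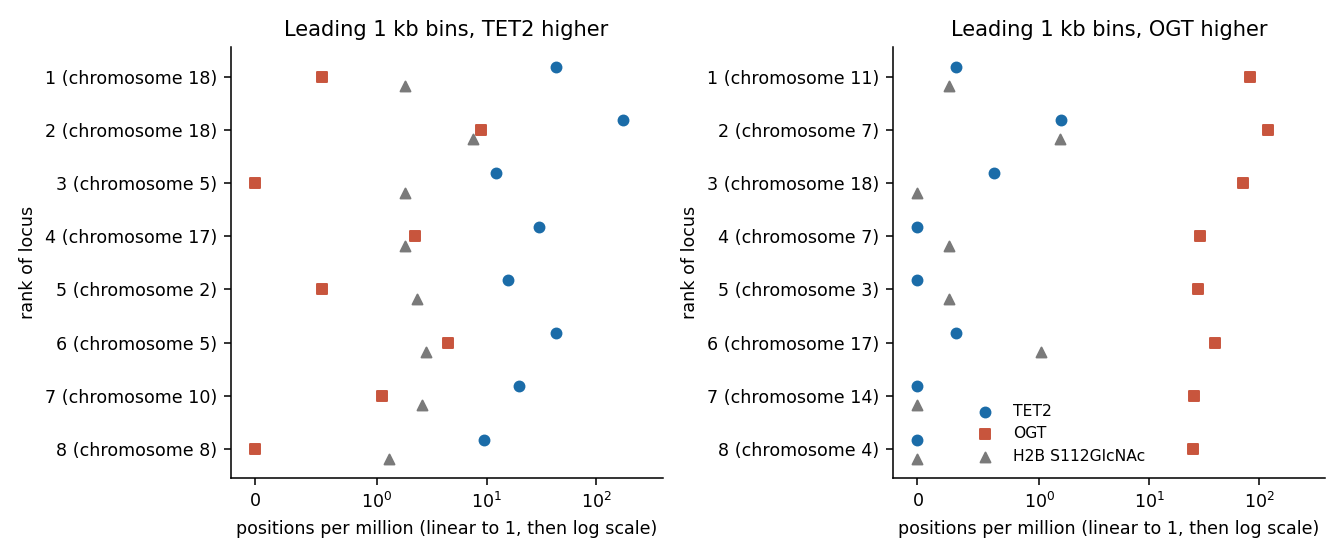
Positions, scaled to library totals, in the leading 1 kb bin of the 8 leading loci higher in TET2 (left) and in OGT (right), ordered by rank, on an axis linear to 1 and logarithmic beyond, for TET2 (circles), OGT (squares) and H2B S112GlcNAc (triangles). OGT lay near H2B S112GlcNAc or below it at the TET2 loci, where H2B S112GlcNAc counts ran from 5 to 29 positions, and TET2 lay near H2B S112GlcNAc at the OGT loci.

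Loci of opposite direction lay close together at 1 place on chromosome 18. chr18:74375001-74376000 held 22 TET2, 0 OGT and 5 H2B S112GlcNAc positions. A bin 2 kb further on, chr18:74377001-74378000, held 5 TET2, 42 OGT and 8 H2B S112GlcNAc positions. A further bin, chr18:74380001-74381000, held 8, 24 and 8. The ratio thus turned within a few kilobases. The pair was singled out after its values were seen.

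Among all 1 kb bins full enough to measure, the ratio was spread differently over OGT-rich and TET2-rich bins. Of 508 bins with at least 20 OGT positions, 65 (12.8%) had a ratio under 0.125, 310 (61.0%) lay between 0.5 and 1, and 0 had a ratio of 2 or more. Of 1412 bins with at least 20 TET2 positions, 39 (2.76%) had a ratio of 8 or more, 325 (23.0%) lay between 2 and 4, and 0 had a ratio under 0.125. The choice of bins by 1 library's count pulls each distribution towards that library. The floor of 20 was also the same for both libraries, although OGT had fewer positions in all. A bin at the OGT floor falls under 0.125 with more TET2 positions than the OGT positions a bin at the TET2 floor may hold at 8. The shares of 12.8% and 2.76% are therefore not a like comparison.

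At 100 kb most of the genome showed no departure beyond counting. The SD of the log2 ratio was 0.26 where counting error alone gives 0.24, which leaves 0.10 beyond it. At 10 kb it was 0.62 against 0.58, which leaves 0.22. A 100 kb bin was called at a ratio of at least 1.5 with an interval clear of 1 and at least 40 positions in the libraries together. TET2 was higher in 158 of 24004 bins (0.658%) and OGT in 364 (1.52%). At 10 kb, with a ratio of at least 2 and at least 20 positions, TET2 was higher in 2152 of 98027 bins (2.20%) and OGT in 1623 (1.66%). With TET2 drawn down to OGT depth, the OGT count at 10 kb was 873. A 95% interval misses the true value in up to 5% of bins through counting error alone, so bins near these limits cannot be told apart from it.

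The direction of these calls depended on the scaling. The median ratio of 10 kb bins with at least 20 positions was 1.04, a shift of 0.05 on the log2 scale. Scaled by it, the calls were 96 for TET2 and 572 for OGT at 100 kb, so that the TET2 share of calls was 14.4% in place of 30.3%. At 10 kb they were 1768 and 1977, and the TET2 share was 47.2% in place of 57.0%. The split at 1 kb moved less, to 40 and 93, with a TET2 share of 30.1% in place of 34.8%.

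Called 100 kb bins were mostly sparse, and few of them owed their call to a 1 kb locus. Of the 158 higher in TET2, 9 held a called 1 kb bin, and of the 364 higher in OGT, 24 did. Bins below the median H2B S112GlcNAc density made up 70.3% and 87.9% of them. Counting error is larger in sparse bins, so a fixed ratio limit is passed through it more often there. Over all tested bins the log2 ratio had an SD of 0.26, and counting error alone gives 0.24. In the class of 100 kb bins with the fewest H2B S112GlcNAc positions the ratio was 0.947, which favours OGT calls. How much of this sparseness follows from these points was not tested. None of the 158 TET2-higher bins lay next to another, and 20 of the 364 OGT-higher bins did. The larger number of OGT calls by itself makes neighbours more frequent. How many neighbours such numbers give at random was not worked out. The median TET2-higher bin had a TET2 over H2B S112GlcNAc ratio of 1.16 and an OGT over H2B S112GlcNAc ratio of 0.714. For the median OGT-higher bin the ratios were 0.783 and 1.28. Against the third library, both sides thus moved away from 1 in a called bin, as the choice by their ratio favours.

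The leading 100 kb bins, by contrast, mostly reflected the 1 kb loci. chr18:7600001-7700000 held 780 TET2 and 88 OGT positions, a ratio of 5.04 (4.04 to 6.36), and without its called 1 kb bins the ratio was 1.07 (0.795 to 1.46). chr18:67400001-67500000 held 393 and 121 positions, a ratio of 1.85 (1.504 to 2.29), and 1.21 (0.974 to 1.52) without its called bin. chr5:66800001-66900000 held 260 and 84, a ratio of 1.76 (1.37 to 2.28), and 0.921 (0.686 to 1.24) without. In these 3 bins the difference lay in the called 1 kb bins. chr14:118500001-118600000 and chr17:66700001-66800000 had ratios of 1.80 and 1.70, and without their called bins 1.39 (1.08 to 1.80) and 1.29 (1.03 to 1.62), both short of the limit of 1.5.

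One leading bin was a broad OGT shortfall with no called 1 kb bin. chr8:65500001-65600000 held 85 TET2, 20 OGT and 102 H2B S112GlcNAc positions, a TET2 over OGT ratio of 2.42 (1.47 to 4.16). No 1 kb bin of it held more than 8 TET2 positions. TET2 matched H2B S112GlcNAc there at a ratio of 1.02 (0.753 to 1.37), and OGT was at 0.420 times H2B S112GlcNAc (0.246 to 0.683). In this stretch OGT was low and TET2 was not high. It is the leading such bin of 24004 tested, and with 20 OGT positions its depth is thin.

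On the OGT side the difference often did not end with the called 1 kb bins. chr7:134700001-134800000 held 197 TET2 and 1003 OGT positions, chr4:49600001-49700000 held 98 and 526, and chr11:87800001-87900000 held 226 and 1123. OGT over TET2 was 8.95 (7.67 to 10.5), 9.43 (7.59 to 11.8) and 8.73 (7.56 to 10.1). Without called 1 kb bins the chromosome 11 bin had a TET2 over OGT ratio of 1.09 (0.856 to 1.38), but the others stayed low, at 0.621 (0.496 to 0.778) on chromosome 7 and 0.625 (0.458 to 0.856) on chromosome 4. chr14:63300001-63400000, with 100 TET2 and 477 OGT positions, kept the lowest ratio, 0.319 (0.239 to 0.423). chr18:7900001-8000000 held 77 and 258 positions and had 0.459 (0.334 to 0.629) left, and chr3:133100001-133200000 held 127 and 274 and had 0.644 (0.492 to 0.843). In 5 of the 6 stretches the positions outside called bins thus still leaned to OGT. These positions include uncalled bins within a locus. On chromosome 4 the locus from 49646001 held 477 of the 526 OGT and 18 of the 98 TET2 positions. On chromosome 14 the loci from 63315001 and 63378001 held 235 and 184 of the 477 OGT positions, and 16 and 20 of the 100 TET2 positions. Part of the lean there thus lay within the loci, and the ratio outside whole loci was not worked out. TET2 in all 6 was between 0.825 and 1.07 times H2B S112GlcNAc.

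TET2 gained on OGT where H2B S112GlcNAc was dense. With 10 kb bins ordered by H2B S112GlcNAc positions, the ratio was 0.941 (0.933 to 0.949) in the lowest 10% of bins and 1.05 (1.04 to 1.05) in the highest 10%. With 100 kb bins it was 0.947 (0.939 to 0.955) and 1.04 (1.04 to 1.05). The lowest 10% was under 1 in each of the 19 chromosomes at both bin sizes, and the highest 10% was above 1 in 18 of the 19. Without extreme bins the highest 10% reached 1.07 (1.07 to 1.08) at 10 kb and 1.06 (1.06 to 1.07) at 100 kb, and the ratio of the extreme bins themselves was 0.828. Both libraries were denser there, with a mean of 33.1 TET2 and 17.97 OGT positions per 10 kb bin, against 5.786 and 3.5004 in the lowest 10%.

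At 1 kb the ratio reached higher values, but in much smaller classes than 10% of bins. Of 2127816 bins, 19532 that were not extreme had 8 to 11 H2B S112GlcNAc positions and 2928 had 12 to 19. The gradients are therefore not a like comparison. Outside extreme bins the ratio was 0.954 (0.949 to 0.958) in bins with 0 H2B S112GlcNAc positions and 1.09 (1.08 to 1.09) with 5 to 7. It was 1.21 (1.19 to 1.22) with 8 to 11, and with 12 to 19 the interval was 1.18 to 1.22. In the class of 8 to 11, TET2 stood at 3.99 times and OGT at 3.29 times its genome mean. With 20 to 49, only 173 of 600 bins were not extreme, and their ratio was 1.07 (0.999 to 1.14), against 0.960 (0.936 to 0.986) over all 600. Both libraries were thus dense where the H2B S112GlcNAc library was dense, and TET2 more so than OGT in the classes from 5 to 19. Without an input library these are densities of reads and not of bound protein. H2B S112GlcNAc density moved with this ratio, and its part in the ratio was not tested.

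**Figure D4:**
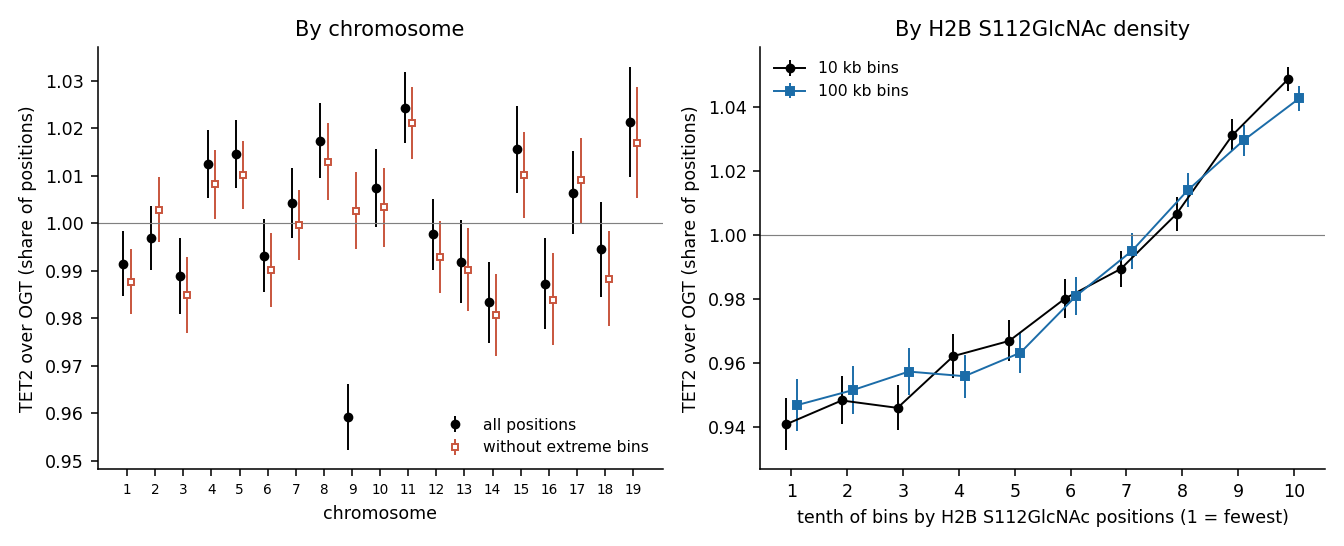
TET2 over OGT ratio with 95% counting intervals by chromosome (left, with and without extreme bins) and for classes of 10% of bins ordered by H2B S112GlcNAc positions (right, 10 kb and 100 kb bins). Chromosome 9 stood low at 0.959 only while extreme bins were counted, and the ratio climbed from 0.941 in the lowest to 1.05 in the highest class of 10 kb bins.

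Whole chromosomes differed by a few percent. The ratio ran from 0.959 (0.952 to 0.966) on chromosome 9 to 1.02 (1.02 to 1.03) on chromosome 11, with a median of 0.998 over the 19. The interval lay above 1 on 6 chromosomes and below it on 5, and held 1 on 8. The low value of chromosome 9 went with extreme bins, and without them its ratio was 1.003 (0.995 to 1.01). Counted by reads it was 1.02 (1.01 to 1.02). Chromosome 11 kept 1.02 (1.01 to 1.03) without extreme bins, and the lowest was then chromosome 14, at 0.981 (0.972 to 0.989). With scaling by the median 10 kb ratio chromosome 11 turned to 0.987 (0.980 to 0.994), whereas chromosome 9 kept its direction at 0.924 (0.918 to 0.931). The other chromosomes were not recomputed under that scaling.

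Along the chromosomes the ratio was nearly level. In the first megabase of usable sequence it was 0.858 (0.847 to 0.869), where TET2 had 3.05 and OGT 2.02 positions per kb. Without extreme bins it was 0.989 (0.969 to 1.01) there, at 1.31 and 0.748 positions per kb. With the covered length divided into 10 equal stretches, again without extreme bins, the ratio was 0.989 (0.983 to 0.995) in the first and 1.01 (1.01 to 1.02) in the last. Both libraries were densest in the last stretch, with 1.71 TET2 and 0.958 OGT positions per kb, against 1.14 and 0.652 in the first. The ratio of the last stretch was above 1 in 9 of 19 chromosomes, and that of the first in 5. The change from first to last within a chromosome was not measured.

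At equal depth more 1 kb bins passed a rule for enrichment in TET2 than in OGT. Counted by positions, the fullest bins did not show TET2 as the more concentrated library. That holds for positions only, since the extreme bins held 10.8% of the reads of each library. At full and unequal depth, the fullest 0.1% of 1 kb bins held 3.08% of TET2 and 3.68% of OGT positions. TET2 was drawn down to 1814416 positions, and a 1 kb bin was called enriched with at least 8 positions and at least 5 times the mean of the surrounding 100 kb. TET2 was enriched in 4364 of 2127816 bins (0.205%) and OGT in 2148 (0.101%). Enriched in both were 981 bins, which is 22.5% of the TET2 bins (21.2 to 23.7) and 45.7% of the OGT bins (43.5 to 47.8). Over 10 random draws the TET2 count was 4364 to 4436 and the shared count 961 to 996, so the draw mattered little.

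Much of that sharing lay in extreme bins, which are high in both libraries by definition. With those bins taken off the lists, 3614 TET2 and 1383 OGT bins were left, and 270 were shared. That is 7.47% of the TET2 bins (6.63 to 8.38) and 19.5% of the OGT bins (17.5 to 21.7). Extreme bins were set by at least 17 TET2 and 8 OGT positions at full depth, and 8 positions is also the minimum for enrichment. Taking them off therefore removes shared bins above others, and the low shares follow in part from that rule. The lists are short of positions, with 8 or 9 in most bins, and at this depth a bin absent from 1 list may still be enriched.

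Levels in the other library showed more in common than the lists did. The following bins leave out extreme bins and those called different at 1 kb, a choice that used both libraries' counts. At 3566 TET2-enriched bins, OGT was 3.87-fold (3.801 to 3.93) denser than at 5 to 20 kb on either side. TET2 positions that the draw had left out were 5.77-fold (5.67 to 5.86) denser there, and H2B S112GlcNAc 3.42-fold (3.38 to 3.46). At the 3301 of these bins that were not on the OGT list OGT was still 3.42-fold (3.36 to 3.48) denser, and 71.5% of them held at least 3 OGT positions, against 6.90% of all usable bins. At the TET2 sites kept, OGT was thus enriched, at a level near that of H2B S112GlcNAc and below that of TET2 itself.

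At the OGT sites kept, TET2 was enriched as well, there above the level of H2B S112GlcNAc. At 1307 OGT-enriched bins the TET2 positions left out of the draw were 4.78-fold (4.64 to 4.92) denser than their flanks, and H2B S112GlcNAc 3.75-fold (3.68 to 3.82). At the 1042 not on the TET2 list the TET2 fold was 4.55 (4.40 to 4.70). The list was chosen on OGT counts, so OGT itself has no fold to set beside these.

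**Figure D5:**
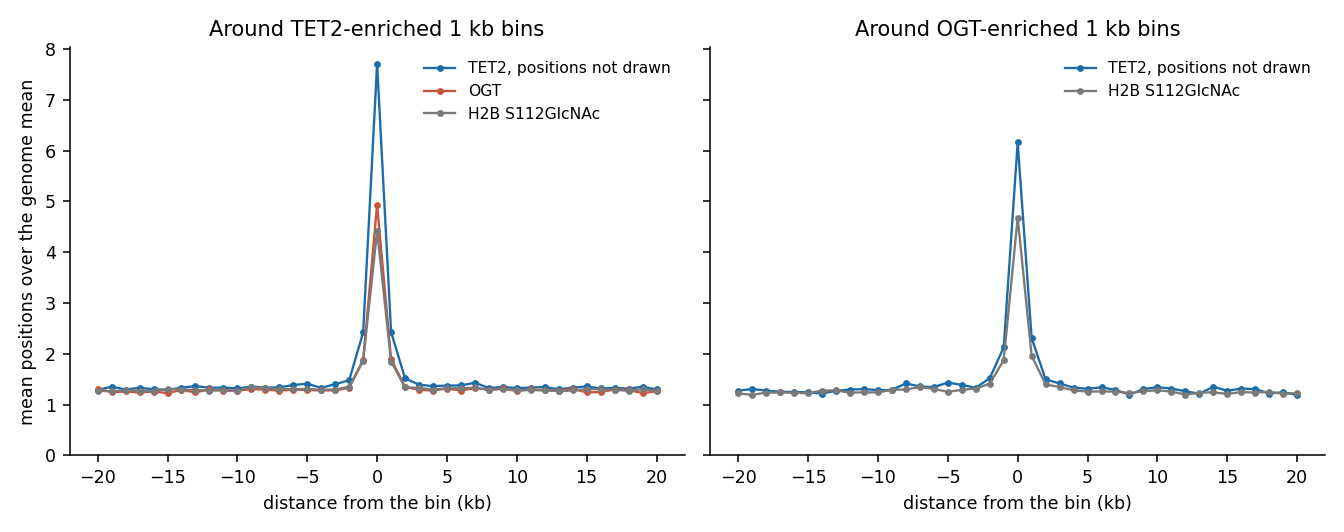
Mean positions over the genome mean in 1 kb bins up to 20 kb from TET2-enriched (left, 3566 bins) and OGT-enriched (right, 1307 bins) bins, for TET2 positions left out of the draw, OGT (left only) and H2B S112GlcNAc. Extreme and called bins were left out. Each library shown peaked within about 1 kb, and TET2 stood highest, at 7.71 times the genome mean on the left and 6.16 on the right.

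The 6 leading shared bins outside extreme bins held 11 to 15 OGT and 14 to 16 TET2 positions. At chr3:51570001-51571000 there were 16 TET2, 15 OGT and 15 H2B S112GlcNAc positions, a ratio of 0.607 (0.281 to 1.32). At chr12:120087001-120088000 there were 14, 11 and 8, and at chr14:90858001-90859000 also 14, 11 and 8. At chr2:91803001-91804000 there were 16, 13 and 13, at chr12:112812001-112813000 there were 16, 11 and 11, and at chr2:70314001-70315000 there were 16, 12 and 14. The ratios of these 6 bins ran from 0.607 to 0.828 and every interval held 1. The rule that named them asked for the highest lower count at equal depth, which favours high OGT counts. A bin with at least 17 TET2 and 8 OGT positions is an extreme bin, so the rule also held TET2 to 16 positions, and these ratios follow in part from the choice. Reads per position were between 1 and 1.21 for TET2 and between 1 and 1.18 for OGT.

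Strand distances outside the called loci also set OGT apart. Over chromosomes 1 to 19 without extreme bins, the number of plus-strand and minus-strand 5′ ends 43 bp apart was set against the mean at 400 to 600 bp. It was 5.31 times that mean for OGT, 2.09 for TET2 and 2.00 for H2B S112GlcNAc. With called 1 kb bins left out too it was 3.11, 2.05 and 2.00, so part of the OGT excess lay in the called loci and part did not. At 110 bp, smoothed over 11 bp, the values without extreme and called bins were 1.53 for OGT, 1.75 for TET2 and 1.44 for H2B S112GlcNAc. With called bins kept in, the values at 110 bp were 1.94 for OGT, 1.82 for TET2 and 1.44 for H2B S112GlcNAc. OGT thus stood highest at 43 bp in both settings. TET2 stood highest at 110 bp only once called bins were left out.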

How the data were processed

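The deposited files list 1 aligned 44 bp read per line, with start, end, score and strand. They are in mm9 coordinates per the submitters' processing notes, which also list CASAVA 1.4 and Bowtie 0.12.2 without their roles. Not given in the sources used here is how reads with several matches were treated. The deposited score was the same in every line, carried no measurement and was not used. The OGT file names chromosomes by RefSeq identifiers, which were put in chromosome order. The last covered bases of the files then lay within 2881 bp of each other on every chromosome.

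Distinct 5′ ends per strand on chromosomes 1 to 19 were counted in bins of 1, 10 and 100 kb with a position in any of the 3 libraries, and scaled to the total of each library. Log2 values had 0.5 positions added. Python 3.11.15 was used with numpy 2.4.6, pandas 2.3.3, scipy 1.17.1 and matplotlib 3.10.9, and the scripts were tested on simulated data. Named were 8 loci of 1 kb bins and 6 bins of 100 kb each way by the lower interval bound, and 6 shared enriched bins. The bins, rules and lists were chosen with earlier results of these data known. Alternatives counted every read, drew TET2 down, changed the scaling, moved bins or ends, changed limits, or left out extreme or called bins. Gene annotation and sequence of mm9 were not used here, so loci are given by position alone. Chromosome X was left out of the comparison.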

Additional observations from a re-analysis of the deposited data

Results flagged for a closer look

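Chromosome Y and mitochondrial DNA lie outside the comparison but held reads of both libraries. Chromosome Y had 1187 TET2 reads (0.0310% of the library) and 706 OGT reads (0.0324%). Mitochondrial DNA had 894 TET2 reads (0.0233%) and 498 OGT reads (0.0228%). No outlier among samples could be sought, because each antibody had 1 library.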

How the results depend on the processing

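No paired analysis was possible because the design has 1 library per antibody. The main results were recomputed 177 times. In 142 the value stayed within 1.5-fold for counts, 1 SD over chromosomes for correlations and the 95% interval for the rest, in 32 it moved and in 3 it changed direction. Ratios of named bins stayed in 95 recomputations, moved in 16 and changed direction in 1. Settings without called bins were chosen after seeing the data.

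Counting every read gave 1.02 on chromosome 9 (reversed), 1.02 on chromosome 11, 148 OGT-higher 1 kb bins, 1.04 in the highest 10% by H2B S112GlcNAc at 10 kb and at 100 kb, and 40.8% of OGT-enriched bins shared. Drawing TET2 down gave an r of 0.589 at 10 kb, 873 OGT-higher 10 kb bins and 26 TET2-higher 1 kb bins. Scaling by the median 10 kb ratio gave 0.924 on chromosome 9, 0.987 on chromosome 11 (reversed), and 96 against 572 bins of 100 kb. With the positions of extreme bins removed before any step, the noise-corrected r was 0.705 at 1 kb and 0.849 at 10 kb, chromosome 9 was at 1.003 (reversed), the highest 10% at 1.07 and 1.06, and the OGT-enriched bins numbered 1428, with 7.38% and 18.6% shared for TET2 and OGT. The named bin from 66800001 on chromosome 5 then reversed to 0.916, since the extreme bin left out was its TET2 peak. With called bins left out as well, 1377 OGT bins were enriched and 7.02% and 18.3% were shared.

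Stricter limits lower counts by construction. A ratio of 2 left 7 and 22 bins of 100 kb. At 10 kb, 40 positions left 859 and 214 bins and a ratio of 3 left 930 and 377. At 10 times the surroundings 1852 TET2 and 1050 OGT bins were enriched, with 29.2% and 51.5% shared. A floor of 10 positions gave 83 TET2-higher 1 kb bins. For the other changes the cause was not tested. Depth limits the 1 kb bins, where the median was 1 position in each library.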
